A study of Mus musculus with 18 samples.

Results

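The fragments described here were reads of mouse mitochondrial tRNA-Arg (mt-TR) that began at its first nucleotide (nt 1) and ran past the common cleavage site, which lies 19 nt before the mature 3′ end, but stopped 4 to 18 nt short of that end. They comprised 15 of the 679 sequences in the counts table, exactly 1 sequence for each of the 15 ends, and held 4544 of 121943 reads. Each end is named here by the number of nt missing from the mature 3′ end, so end 18 is the shortest of these fragments and end 4 the longest. Small RNA of the liver was sequenced in 3 libraries for each of 6 strains of healthy adult female mice. The wild-type strains were CC (C57BL/6J nucleus and mtDNA), FF (FVB/NJ nucleus and mtDNA) and HH (C3H/HeN nucleus and mtDNA). The mitochondrial-nuclear exchange (MNX) strains, made by pronuclear transfer between oocytes, were HC (C3H/HeN nucleus with C57BL/6J mtDNA), CF (C57BL/6J nucleus with FVB/NJ mtDNA) and CH (C57BL/6J nucleus with C3H/HeN mtDNA). The first letter names the nucleus and the second the mtDNA, so each mtDNA type (C, F or H) was represented by 6 libraries. All libraries came from precipitated pools of small RNA that were demethylated and end-repaired before library preparation. Whether the replicates of a strain came from separate animals was not stated in the sources used here, so the p-values measure only the spread between these libraries. The table holds no other gene, so the tissue label could not be checked against liver markers.

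A mature tRNA folds into an acceptor stem, in which the 5′ and 3′ ends pair, and the D, anticodon and T arms. The T arm is a stem closed by the T loop, which in a folded tRNA contacts the D loop. Fragments cut from tRNA (tRFs) are a class of small RNA, and those that keep the 5′ end are grouped by where the 3′ end lies. In mt-TR the 3 mtDNA types differ only in 2 short runs near the 5′ end, so the stretch past the cleavage site had the same letters in every type.

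The longest fragment of each mtDNA type is shown because every shorter member is the same sequence with letters taken from its 3′ end. Capitals mark the bases past the cleavage site, the only part in which the 15 ends differ.

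C type, end 4: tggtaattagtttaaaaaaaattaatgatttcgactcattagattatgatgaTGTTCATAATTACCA

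F type, end 4: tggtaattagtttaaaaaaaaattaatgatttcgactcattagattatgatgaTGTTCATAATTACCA

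H type, end 4: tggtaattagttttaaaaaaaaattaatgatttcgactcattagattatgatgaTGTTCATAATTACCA

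The C type sequence lies at chrM:9808-9874 on the + strand of GRCm38 (mm10), within the mt-Tr gene (ENSMUSG00000064361.1), a noncoding tRNA gene of 68 nt at chrM:9808-9875. The fragments were 53 to 67 nt long in the C type, 54 to 68 nt in the F type and 55 to 69 nt in the H type, and the mature tRNA with its added CCA has 71, 72 and 73 nt. The 4 ends with the highest mean share of nt 1 reads follow in the C type, with the same capitals.

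C type, end 18: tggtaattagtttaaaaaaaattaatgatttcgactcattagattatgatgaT

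C type, end 17: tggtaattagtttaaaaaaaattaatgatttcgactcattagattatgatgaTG

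C type, end 14: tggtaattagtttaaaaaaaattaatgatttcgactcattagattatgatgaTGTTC

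C type, end 9: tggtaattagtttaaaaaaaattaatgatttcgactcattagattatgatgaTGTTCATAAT

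The working name of these fragments, 5′ fragments that reach into the T arm, covers only part of where they end. The cleavage site itself already lies inside the T loop, so each member held the whole 5′ strand of the T stem. Ends 18 to 16 (3 ends) lay in the rest of the T loop, ends 15 to 11 (5 ends) in the 3′ strand of the T stem, and ends 10 to 4 (7 ends) ran on into the 3′ strand of the acceptor stem. The T stem is 5 base pairs and the acceptor stem 7 base pairs long, and all pairs were Watson-Crick in the 3 types.

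Depth differed widely between libraries and has to be read beside every share. The table held 189 to 23805 mt-TR reads per library, and 4 libraries had fewer than 1000 (HC replicate 1, CF replicate 3, and CH replicates 1 and 2). Reads that began at nt 1 were 13.1 to 86.2% of a library. The 15 fragments were seen with 1 to 674 reads per library, and 3 libraries had fewer than 20 of them (12 reads in CF replicate 3, 4 in CH replicate 1 and 1 in CH replicate 2). CH replicates 1 and 2 did not differ beyond the sampling noise over 11 fragments (chi-square p = 0.402), whereas both differed from replicate 3. Their counts were not identical, and with 191 and 232 reads they were kept as separate libraries. Counting them as 1 sample turned the direction of 2 differences and brought none of the 12 comparisons of shares past the threshold. HC replicate 1 stood apart from the other C type libraries in the shares of nt 1 reads and of reads at or past the site, and CF replicate 3 from the other F type libraries in the latter, so these results are given with and without them.

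The fragments past the site were a minor part of the mt-TR reads and were present in 18 of 18 libraries. As a share of all reads in the table they took up 3.86% ± 1.72 (SD, n = 18). In the wild-type strains the share was 4.06, 3.87 and 2.50% in CC, 3.60, 4.74 and 6.08% in FF, and 3.85, 3.12 and 6.09% in HH. The HC libraries gave 6.41, 1.81 and 2.56%, the CF libraries 4.41, 2.50 and 6.35%, and the CH libraries 2.09, 0.431 and 5.0%. The ranges of the 6 strains overlapped, and the lowest value rested on a single read in CH replicate 2 (95% Wilson interval 0.0761 to 2.40%). Among the 14 libraries with at least 1000 reads, the highest share was 3.37 times the lowest. In bulk liver, fewer cells of a type and less RNA per cell cannot be told apart.

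Measured against the reads that began at nt 1, the same fragments varied far more. They made up 7.16, 5.79 and 2.89% of nt 1 reads in CC, 4.30, 5.81 and 8.0% in FF, and 29.4, 6.94 and 22.5% in HH. For HC the values were 22.1, 2.59 and 4.54%, for CF 13.03, 3.58 and 24.5%, and for CH 7.02, 2.08 and 12.7%. The 6 libraries above 12% each had fewer than 1000 nt 1 reads, as had CH replicates 1 and 2 with their lower shares, and the part of depth in this spread was not tested. HH replicate 1 had 163 of these fragments among 554 nt 1 reads, and CC replicate 3 had 594 among 20525. The 95% Wilson intervals of these 2 shares, 25.8 to 33.3% and 2.67 to 3.13%, did not overlap. The intervals treat reads as independent and cover counting error only. The highest share was 14.1 times the lowest over 18 libraries, and 11.4 times among libraries with at least 1000 reads.

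The sharpest contrast between libraries was in how the reads that reached the site divided between stopping there and running past it. Of the reads from nt 1 that ended at the site or past it, 13.2, 10.4 and 5.49% ran past in CC, 6.73, 8.76 and 12.5% in FF, and 78.7, 12.2 and 47.8% in HH. The HC libraries had 74.6, 7.43 and 7.07% running past, the CF libraries 24.0, 6.81 and 60.0%, and the CH libraries 18.2, 4.55 and 34.1%. In 15 of 18 libraries the site end held more reads than the 15 longer ends together, and the 3 libraries where it did not were HH replicate 1 (44 site reads), HC replicate 1 (16) and CF replicate 3 (8). CH replicate 3 held 224 site reads and 116 past the site.

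No difference between mtDNA types in these shares passed its test after adjustment. The fragments past the site were 3.53% ± 1.65 of the table in the C type, 4.61% ± 1.46 in the F type and 3.43% ± 2.03 in the H type (SD, n = 6 each). The C minus H difference was 0.0998 percentage points (two-sided exact permutation p = 0.931, Benjamini-Hochberg adjusted over 9 tests 0.991), the F minus H difference 1.18 (exact p = 0.279, adjusted 0.699) and the C minus F difference -1.08 (exact p = 0.242, adjusted 0.699). Without the 4 libraries under 1000 reads the C minus H difference was -1.56 and the F minus H difference -0.254, so both changed direction. Without HC replicate 1 the C minus H difference was -0.476.

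As a share of nt 1 reads the means were 7.51% ± 7.34 in the C type, 9.87% ± 7.93 in the F type and 13.4% ± 10.5 in the H type (SD, n = 6 each). The differences were -5.93 percentage points for C minus H (exact permutation p = 0.258), -3.57 for F minus H (exact permutation p = 0.522) and -2.36 for C minus F (exact permutation p = 0.543), with adjusted p = 0.699 for each of the 3. Without HC replicate 1 the C mean was 4.59%, and without CF replicate 3 the F mean was 6.94%. Over the libraries of at least 1000 reads the C minus H difference was -13.3 (exact permutation p = 0.0159, adjusted 0.0714) and the F minus H difference -10.9 (exact permutation p = 0.0635, adjusted 0.143). Without HH replicate 1 they were -2.73 and -0.372. As a share of reads at or past the site the C type had a mean of 19.7% ± 27.0, the F type of 19.8% ± 20.7 and the H type of 32.6% ± 27.5 (SD, n = 6 each). The lowest p of those 3 comparisons was 0.390 by the exact permutation test (F minus H, -12.8 percentage points, adjusted 0.699). Without HC replicate 1 the C mean was 8.73%, and without CF replicate 3 the F mean was 11.8%. Over the libraries of at least 1000 reads C minus H was -34.5 (exact permutation p = 0.0159) and F minus H -31.5 (exact permutation p = 0.0238), each with an adjusted p = 0.0714 that did not pass. Without HH replicate 1 they were -3.66 and -3.57, so the size of these differences rested on few libraries.

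Wild type was compared with MNX within mtDNA types, over all 18 libraries. The nuclei compared differed between the types, with the C3H/HeN nucleus in the MNX strain of the C type and the wild type of the H type. A difference that follows this nucleus enters the average with opposite signs in those types. The averaged test therefore cannot decide whether the nucleus matters. In wild-type livers the share of all reads was higher by 0.704 percentage points on average (exact permutation p = 0.404, adjusted over 3 measures 0.984). The difference was 0.0789 points for the share of nt 1 reads (exact permutation p = 0.984, adjusted 0.984) and -4.55 points for the share past the site (exact permutation p = 0.722, adjusted 0.984). Within the types this wild type minus MNX difference went opposite ways for the latter measures. Wild type minus MNX was -4.45 points in the C type, -7.66 in F and 12.3 in H for the share of nt 1 reads, and -19.99, -20.96 and 27.3 points for the share past the site. By nucleus, the strain with the C3H/HeN nucleus had the higher mean in both the C and H types. For nt 1 reads it was 9.73% in HC against 5.28% in CC, and 19.6% in HH against 7.26% in CH. Past the site it was 29.7 against 9.71%, and 46.2 against 18.9%. The HC means rested on replicate 1 (22.1 and 74.6%), and no other HC library lay above the CC range. The means by nucleus were not tested. Whether the wild type minus MNX differences differ between types was not tested, and an average of 0.0789 points does not show that the nuclei acted alike. Within each type the MNX strain had the lower read totals, so read depth and nucleus cannot be told apart in these comparisons.

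The 15 ends were far from evenly used. End 17, which stops after the G that lies 2 nt past the site, held 1230 reads or 27.1% of the reads past the site. End 18, only 1 nt past the site, held 844 (18.6%), and end 14, after the C 5 nt past the site in the T stem, held 842 (18.5%). Ends 13, 8 and 12 followed with 285, 282 and 281 reads, then ends 16 (196), 9 (152) and 11 (126). The other 6 ends held 13 to 92 reads each, and end 4, the last before the final base that the gene encodes, held the 13. By the base at the 3′ end, T closed the largest share of the pooled reads in each mtDNA type, 36.6% in C, 42.7% in F and 45.9% in H. The order of G and C differed in these pooled reads, of which CC supplied 1890 of the 2167 in the C type. In the C type 28.7% ended in C and 24.0% in G, in the F type 5.99% ended in C and 38.2% in G, and in the H type 26.1% ended in C and 10.2% in G. The order of the C type did not hold in the 277 reads of HC. There end 17, which closes in G, held 19.1%. Ends 14, 6 and 5, which close in C, held 7.58, 0.361 and 0%. G is the last base of a single end and C of 3, whereas T closes 6 ends and A closes 5.

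The edges of the set lay far apart in abundance. The site end, 1 nt shorter than end 18, held 42477 reads in 18 of 18 libraries, and the end 1 nt before the site held 682. Beyond end 4, the end that stops at the last encoded base held 5 reads in 4 libraries. That end is 70 nt long in the H type and past the longest reads listed, which span 40 to 69 nt.

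End 18 was found in 17 of 18 libraries and had the highest mean share of nt 1 reads, 1.91% ± 1.87 (SD, n = 18). It held 87, 79 and 86 reads in CC, 117, 135 and 89 in FF, and 37, 29 and 57 in HH. The HC libraries held 9, 3 and 74, the CF libraries 16, 11 and 1, and the CH libraries 1, 0 and 13. As a share of nt 1 reads it was highest in HH replicates 1 and 3 (6.68 and 5.88%), and lowest among libraries with a read in HC replicate 2 (0.277%). The 3 mtDNA types overlapped.

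End 17 had a mean of 1.53% ± 0.796 of nt 1 reads (SD, n = 18). It held 170, 128 and 170 reads in CC, 246, 225 and 134 in FF, and 15, 37 and 13 in HH. The HC libraries held 4, 5 and 44, the CF libraries 15, 16 and 1, and the CH libraries 0, 1 and 6. Normalised to 1000000 reads of the table, the 3 FF libraries (16994 to 20464) lay above the other 15, of which CC replicate 1 was the highest (11086). CF lay at 5291 to 8264 and HH at 3544 to 5609, so the F and H types overlapped by a small margin. The separation of FF did not hold as a share of nt 1 reads. There HH replicate 1 (2.71%) lay above the 3 FF libraries (2.03, 2.18 and 2.69%), and CF replicate 1 (2.44%) within their range. The mean share was 2.06% in the F type and 1.34% in the H type. Reads from nt 1 were on average 61.8% of the table in F and 29.2% in H.

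End 14 had a mean of 1.45% ± 2.06 of nt 1 reads (SD, n = 18) and showed another order. It held 179, 269 and 128 reads in CC, 23, 37 and 16 in FF, and 41, 39 and 58 in HH. The HC libraries held 3, 3 and 15, the CF libraries 7, 6 and 0, and the CH libraries 0, 0 and 18. On the same scale, CC (5377 to 15428) and HH (5913 to 16210) lay above FF (1589 to 2926), with no overlap. The HC libraries lay at 1898 to 4093, the CF libraries at 0 to 3857 and the CH libraries at 0 to 7765. How many other fragments separate the strains in this way was not counted, for this end or the previous one.

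The pair of ends 17 and 14 therefore divided differently between the libraries, a pattern noticed after the values were seen and given with no test. End 14 made up 51.3, 67.8 and 43.0% of the reads of both ends in CC, 8.55, 14.1 and 10.7% in FF, and 73.2, 51.3 and 81.7% in HH. In the MNX libraries with at least 20 reads of both ends it made up 25.4% in HC replicate 3, 31.8 and 27.3% in CF replicates 1 and 2, and 75.0% in CH replicate 3. The median over such libraries was 47.1% in the C type (4 libraries), 14.1% in the F type (5) and 74.1% in the H type (4). The C and F ranges overlapped and so did the C and H ranges, whereas F (8.55 to 31.8%) and H (51.3 to 81.7%) did not. The 3′ ends themselves have the same letters in the 3 types.

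The leading end also moved between libraries. Among the 15 libraries with at least 20 of these fragments, end 14 led in 6 (CC replicates 1 and 2, the 3 HH libraries and CH replicate 3), end 17 in 5 (CC replicate 3, the 3 FF libraries and CF replicate 2) and end 18 in 3 (HC replicates 1 and 3, and CF replicate 1). In HC replicate 2 ends 8 and 17 tied with 5 reads each.

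End 9, in the acceptor stem, had the fourth highest mean share of nt 1 reads, 1.20% ± 2.08 (SD, n = 18), which rested on small libraries. It held 13, 11 and 12 reads in CC, 6, 26 and 17 in FF, and 10, 8 and 14 in HH. The HC libraries held 8, 4 and 7, the CF libraries 3, 2 and 4, and the CH libraries 2, 0 and 5. Its highest share, 8.16% in CF replicate 3, came from 4 of 49 nt 1 reads (95% Wilson interval 3.22 to 19.2%), and the 3 CC libraries lay between 0.0585 and 0.150%.

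End 11 marks the last base of the T stem, and with it the whole T arm is contained in the fragment. It held 14, 14 and 9 reads in CC, 12, 20 and 19 in FF, and 4, 3 and 11 in HH. The HC libraries held 5, 3 and 4, the CF libraries 2 each, and the CH libraries 0, 0 and 2. The absence in CH replicates 1 and 2 allows shares of up to 5.26 and 6.25% of their nt 1 reads. End 4 was found in 7 libraries, with 1 to 3 reads in each.

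Grouped by region, the T loop ends took the largest part of the fragments in FF, 73.3, 63.9 and 62.1%. They took 45.7, 34.3 and 47.1% in CC, where the T stem ends took 44.2, 55.5 and 36.9%, and 36.2, 38.3 and 38.5% in HH, where the T stem ends took 44.8, 46.6 and 44.5%. The 3 FF libraries lay above the 6 other wild-type libraries in the T loop part and below them in the T stem part. In the MNX libraries with at least 20 of these fragments, the T loop part was 27.7, 32.1 and 62.4% for HC, 41.3 and 49.2% for CF replicates 1 and 2, and 23.3% for CH replicate 3. The acceptor stem ends took 8.25 to 19.02% in the wild-type libraries and 16.3 to 40.5% in the same MNX libraries. The MNX libraries were also the smaller ones, with 28 to 202 of these fragments against 163 to 674.

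The 4 longest ends (7 to 4) together held 40 of 2167 reads past the site in the C type, 34 of 1669 in F and 64 of 708 in H. They were 3.54, 1.04 and 0.842% of the fragments in CC, 1.15, 2.0 and 2.51% in FF, and 7.36, 1.94 and 7.34% in HH. In HC they were 2.13, 0 and 2.48%, in CF 5.0, 3.39 and 0%, and CH replicates 1 and 2 had none. CH replicate 3 supplied 32 of the 64 H type reads (27.6% of its fragments, 95% Wilson interval 20.3 to 36.3%). HH replicate 2 lay below CF replicates 1 and 2 and within the range of the C type, so the types overlapped. Ends 7 to 4 did not pass the count filter, so the comparison of single ends gave no test for them. Without the filter, edgeR called ends 7, 6 and 5 lower in C than in H (beside 5.33% of all fragments called in that direction), with log2 differences of -2.95 ± 0.81 for end 7 and -3.01 ± 0.96 for end 6 (SE, edgeR adjusted p = 0.0127 and 0.0364). No fold is given for end 5, which had 0 reads in the 3 HC libraries. The same fit called end 5 lower in F than in H (beside 4.22%). These ends were chosen after their values were seen. CH replicate 3 held 16 of the 27 H type reads of end 7 and 7 of the 15 of end 6. The fit without the filter was not repeated without that library. In the fit over the 14 libraries with at least 1000 reads, CH is replicate 3 alone and is assumed to vary like the other groups. A single library was then enough to pass the count filter. Ends 6 and 5 passed it only through CH replicate 3, where each had 3020 normalised reads, so that fit is no separate support for them. The median log2 difference over the 14 ends tested there was -1.18 in C against H, beside -0.94 over all fragments tested. In F against H it was -0.70, beside -0.97.

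The same 3′ ends also occurred on reads that began later, and the share of starts at nt 1 did not differ between reads stopping at the site and reads running past it beyond the spread between libraries. Among reads that began at nt 1 to 10, 88.2% ± 8.18 of those ending past the site began at nt 1, against 86.3% ± 7.62 of those ending at the site (SD, n = 18). The mean difference within libraries was 1.91 percentage points (two-sided exact sign-flip permutation p = 0.485, n = 18), and the share past the site was the lower one in 8 of 18 libraries. Without CF replicate 3, where 12 of 12 reads past the site and 8 of 12 at it began at nt 1, the difference was 0.0603, and it was 0.150 with only libraries of 1000 or more reads. The 572 reads that began at nt 2 to 10 and ended past the site had the same 3 leading ends in another order. End 14 held 20.8%, end 17 held 17.8% and end 18 held 12.9%, compared with 18.5, 27.1 and 18.6% of the nt 1 reads. At the far side the profiles parted, because ends 5 and 4 held 6.47 and 6.12% of the later-starting reads but 0.682 and 0.286% of the nt 1 reads. These shares are descriptions of pooled reads with no test.

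Single ends were compared by edgeR's quasi-likelihood test over the 67 fragments of the table that passed the count filter, 9 of the 15 ends among them (18, 17, 16, 14, 13, 12, 11, 9 and 8). In F against H, 1 end was called at an adjusted p under 0.05, beside 41.8% of all fragments tested. That end was 17, at 12597 ± 6546 normalised reads in the F type and 3281 ± 1893 in the H type (SD, n = 6 each), a log2 difference of 1.80 ± 0.60 (SE, edgeR adjusted p = 0.0157). It was among the 4.48% of fragments called higher in F, and the median log2 difference was 0.37 over the 9 ends and -0.76 over all 67 fragments. The call was lost without CH replicate 3 (log2 difference 1.85, edgeR adjusted p = 0.0585), and without the 4 libraries under 1000 reads (1.81, edgeR adjusted p = 0.0545). It was also lost without the count filter (edgeR adjusted p = 0.119), and over its 23 alternatives the adjusted p ran from 4.67e-06 to 0.119. End 14 was lower in F by a log2 difference of -1.44 ± 0.62 (SE), which did not pass (edgeR adjusted p = 0.0532). It was -0.49 with TMM scaling (edgeR adjusted p = 0.402) and -0.52 by DESeq2 (adjusted p = 0.357), and over its 23 alternatives the adjusted p ran from 0.0287 to 0.557. The site end, for reference, differed by 1.57 ± 0.71 (SE, edgeR adjusted p = 0.0677).

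In C against H none of the 9 ends was called by edgeR at an adjusted p under 0.05, nor at an unadjusted p under 0.05, beside 44.8% of all fragments tested. End 17 had a log2 difference of 0.96 ± 0.59 (SE, edgeR adjusted p = 0.187). End 14 had -0.45 ± 0.60 (SE, edgeR adjusted p = 0.542), and its direction turned to 0.50 with TMM scaling. The median was -0.12 over the 9 ends and -0.65 over all 67. In C against F none of the 9 ends was called, with 0 at an unadjusted p under 0.05, beside 1.49% of all fragments, and ends 17 and 14 differed by -0.84 ± 0.52 and 0.99 ± 0.61 (SE, edgeR adjusted p = 0.980 for both). Each mtDNA type enters a pair of these comparisons, so they are not independent of each other.

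The number of ends called moved with the scaling of the libraries, as it did with the filter and the libraries kept. TMM scaling moved the median log2 difference over the 67 fragments from -0.76 to 0.04 in F against H and from -0.65 to 0.40 in C against H. Relative to that median, end 17 in F against H stood at 2.56 with the table totals and at 2.69 with TMM scaling, and in C against H at 1.61 and 1.62. This was not particular to end 17. The site end stood at 2.34 and 2.69 in F against H, and at 2.06 and 2.30 in C against H. With TMM scaling 5 ends were called higher in F than in H (18, 17, 13, 11 and 8), beside 26.9% of all fragments called in that direction, and 2 higher in C than in H (17 and 8), beside 32.8%. DESeq2 called 5 and 2 as well, the same ends, beside 31.3 and 32.8%. Over all 67 fragments the calls in C against H were 5 higher and 25 lower with the table totals, and 22 higher and 15 lower with TMM scaling. In F against H they were 3 higher and 25 lower, and 18 higher and 16 lower.

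Between the nuclear backgrounds edgeR called none of the 9 ends. In HC against CC, with 0% of fragments called, end 14 was at 2643 ± 1255 normalised reads in HC and 10826 ± 5079 in CC (SD, n = 3 each). Its log2 difference of -2.17 ± 0.85 (SE) had an edgeR adjusted p = 0.201. End 9 differed by 2.52 ± 1.0 in the same comparison (SE, edgeR adjusted p = 0.201), and these were the 2 ends at an unadjusted p under 0.05. Of the HC libraries replicate 1 had 8 reads of end 9, or 10914 normalised reads, against 2586 and 886 in the others, and without it the log2 difference was 1.15 (edgeR adjusted p = 0.937). DESeq2 called end 14 lower in HC, the only fragment that it called there (1.49% of those tested). In FF against CF, where 34.3% of fragments were called, end 17 was at 18416 ± 1818 normalised reads in FF and 6777 ± 1487 in CF (SD, n = 3 each), with a log2 difference of 1.37 ± 0.75 (SE, edgeR adjusted p = 0.173). TMM scaling called it higher in FF (edgeR adjusted p = 0.0222, beside 1.49% of fragments called in that direction), and DESeq2 called ends 17 and 18 (beside 2.99%). Over its 23 alternatives the adjusted p of end 17 ran from 0.00119 to 0.563. None of the 9 ends had an unadjusted p under 0.05 there with the table totals.

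In HH against CH, with 0% of fragments called, the 9 ends had edgeR adjusted p = 0.991 throughout and 0 had an unadjusted p under 0.05. End 14 was at 10603 ± 5210 normalised reads in HH and 2588 ± 4483 in CH (SD, n = 3 each), where its 18 reads came from CH replicate 3. The interaction of nucleus and mtDNA over CC, HC, CH and HH was largest for end 14 among the 9 ends, at 3.37 ± 1.21 (SE, edgeR adjusted p = 0.421), beside 0% of fragments called. It was the only end of the 9 at an unadjusted p under 0.05, and edgeR with TMM scaling and DESeq2 called it in the same direction (adjusted p = 0.0481 and 0.0126, beside 1.49% of fragments in each). Over its 23 alternatives the adjusted p ran from 0.0126 to 0.951. This contrast is the same as the wild-type strains CC and HH against the MNX strains HC and CH, which had the lower read totals. Interaction, wild type against MNX, and read depth therefore cannot be told apart in it.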

How the data were processed

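The authors deposited 1 table of deduplicated read counts of mt-TR sequences, 1 row per sequence and 1 column per library. Per the labels and the study's methods, reads were handled with FastQC 0.12.1, UMI-tools 1.1.6, cutadapt 5.0, BWA 0.7.18 and Bowtie 1.3.1 (no gaps or mismatches against the mature mt-TR of the library's own mtDNA type), and reads with other matches in mm10 were removed. Rows are written in the letters of the C type, and all sequences of the F and H types matched their own mature tRNA once 1 and 2 run bases were put back. The 15 fragments were rows with no leading and 4 to 18 trailing dashes. The members, the ends and the tests were chosen with earlier results of these data known. The rule for ends named with values took the 4 with the highest mean share of nt 1 reads, ends 11 and 4, and the site end. It also took every end called by edgeR with the table totals and the count filter over all libraries. Ends 13 and 8, called under other settings, are listed without their differences.

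Shares were computed per library with 95% Wilson intervals (scipy 1.17.1, Python 3.11.15), and an upper limit of 3 counts was used where a count was 0. Depth was 189 to 23805 reads. The shares of 2 mtDNA types were tested by exact permutation, two-sided, of the difference between means (6 against 6 libraries, smallest p 0.00216), adjusted over 9 tests, and wild type against MNX within types over 8000 arrangements. Single fragments (same start and trailing dashes in the 3 types) were tested with edgeR 4.0.16 (glmQLFit, glmQLFTest, filterByExpr, R 4.3.3), 1 fit of 6 groups with the table total as library size, Benjamini-Hochberg over all 67 fragments. The edgeR test recovered known changes on simulated data in C against H. Those changes were larger than any log2 difference given here, and smaller ones were not simulated. Alternatives were TMM scaling, DESeq2 1.42.0, no filter, a replicate block, each library left out, libraries of at least 1000 reads, other ends and denominators, and, chosen after seeing the data, CH replicates 1 and 2 as 1 sample and the edgeR fit over libraries of at least 1000 reads.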

Additional observations from a re-analysis of the deposited data

Results flagged for a closer look

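In 3 of 9 tests for a library far from the others of its mtDNA type, 1 library exceeded Dixon's critical value for 6 samples, where chance flags about 1 in 20 groups. HC replicate 1 had 22.1% of its nt 1 reads past the site, against 2.59 to 7.16% in the other 5 C type libraries. The same library had 74.6% of its reads at or past the site ending past it, against 5.49 to 13.2% in the others, and rested on 47 fragments and 16 site reads. CF replicate 3 had 60.0% of such reads past the site, against 6.73 to 24.0% in the other F type libraries, and rested on 12 fragments and 8 site reads.

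Reads that began at nt 1 and ended within 3 nt of the mature 3′ end, outside the ends described above, were above the limit that a count of 0 allows in the 3 CC libraries, with 21, 10 and 5 reads. In the F and H types such reads are wholly or partly longer than the 69 nt that the table holds, so no comparison was made.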

How the results depend on the processing

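None of the 12 comparisons of shares passed its adjusted test under any alternative run. Directions that turned were all of differences that did not pass. For the share of the table, C minus H was -1.56 over libraries of at least 1000 reads and -0.334 with CH replicates 1 and 2 as 1 sample, and F minus H was -0.254 over libraries of at least 1000 reads. For the share of nt 1 reads, wild type minus MNX was -0.481 with ends 4 to 17, -0.00979 with a denominator of 4 to 31 trailing dashes and -0.373 with the CH libraries joined. For the share past the site, wild type minus MNX was 2.83 over libraries of at least 1000 reads. The start comparison was -0.0281 with starts of nt 1 to 5. With each library left out in turn, the share of the table C minus H ranged from -0.501 to 0.632, the share of nt 1 reads C minus F from -5.27 to 0.562 and wild type minus MNX from -1.61 to 2.19, and the share past the site C minus F from -11.1 to 7.95 and wild type minus MNX from -9.97 to 2.93. Over libraries of at least 1000 reads the differences from H were over 2 times those reported for the shares of nt 1 reads and past the site, with adjusted p from 0.0714 to 0.143. Those tests permuted fewer libraries, so their smallest possible p was higher than over all libraries. The ends called in C against H were 0 by the edgeR test as reported, 2 with TMM scaling, 2 by DESeq2 and 3 without the filter. In F against H they were 1, then 5, 5 and 1 (another end) under the same settings, and 0 to 2 with each library left out, the 0 without CH replicate 3. DESeq2 called 1 end in HC against CC, 2 in FF against CF and 1 in the interaction, and TMM scaling called 1 in each of the last 2. End 14 in C against H turned to 0.50 with TMM scaling and 0.41 with DESeq2. It ranged from -0.63 to 3.56 there, and from -1.65 to 2.57 in F against H, with each library left out. The high values came without CH replicate 3, when the remaining CH libraries held 0 reads of end 14, and are fitted values with no bound. End 14 in F against H was called without CC replicate 3, HC replicate 1, HH replicate 2 or CH replicate 2. The replicate numbers did not pair the libraries, since deviations of same-numbered libraries had a mean correlation of -0.0175 and 7 of 18 libraries correlated best with their own number. With the replicate block, end 17 in F against H was at 1.79 (edgeR adjusted p = 0.0259) and no call changed. Depth limits the CH strain most, where 2 of 3 libraries held 4 and 1 of these fragments. The causes of these changes were not tested.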
